A study of Mus musculus with 13 samples.

Results

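Macrophages of the airspaces take up, store and return iron, and 8 genes of that circuit were followed here in alveolar macrophages of mice exposed to particulate matter (PM) with or without metformin. The 8 genes were listed by their function: the transferrin receptor gene Tfrc, the metal ion transporter genes Slc11a1 and Slc11a2, the ferritin genes Fth1 and Ftl1, the iron exporter gene Slc40a1, the iron regulatory gene Ireb2 and the ferritin turnover gene Ncoa4. All 8 were among the 43430 genes of the count table and among the 11906 that passed the filter on low counts. The cells were sorted by flow cytometry from lung tissue of C57Bl/6 males that were 10 weeks old, and polyadenylated RNA of each of 13 animals gave 1 library. Mice on vehicle received phosphate-buffered saline (PBS, 4 libraries) or PM (3 libraries), and mice on metformin, an antidiabetic drug given here in the drinking water at 100 mg/kg per day, received PBS (3 libraries) or PM (3 libraries). PM was standard material from NIST, 10 µg per animal into the trachea, 24 h after the start of metformin, and the lungs were taken 24 h later. The RNA of the sorted cells therefore gives 1 time point after 1 dose, with no measure of iron itself or of protein.

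Iron bound to transferrin enters cells through the transferrin receptor and crosses the membrane of the endosome through the transporter DMT1, the product of Slc11a2; NRAMP1, the product of Slc11a1, moves divalent metals out of phagosomes. Ferritin, a shell built of heavy (Fth1) and light (Ftl1) chains, stores the iron, NCOA4 carries ferritin to the lysosome for breakdown, and ferroportin, the product of Slc40a1, is the exporter. Iron regulatory proteins, of which Ireb2 encodes one, bind hairpins called iron-responsive elements when iron is scarce: a hairpin in the 5′ untranslated region (UTR) blocks translation, and hairpins in the 3′ UTR of Tfrc protect the mRNA from decay. C57BL/6 mice carry a form of Slc11a1 whose protein does not function in phagosomes, so its RNA level in this strain is not a measure of transporter activity.

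The hairpins are the sequences through which iron sets the level of Tfrc mRNA and the translation of ferritin and ferroportin mRNA, so they are printed for the members that hold one. A pattern of a C, 5 stem bases, a loop of CAGTGN or CAGAGN and 5 bases that pair with the stem (G-T pairs allowed) was searched on the sense strand of the GENCODE M21 coding transcripts (GRCm38, the same assembly as mm10). With all 5 pairs it was found in a UTR of 4 of the 8 genes, against 1.41% of 21899 coding genes. Each line gives 27 bases, 5′ to 3′, with the loop in capitals; the first 3 lie in the 5′ UTR of their gene at chr19:9982733-9982759 (plus strand), chr7:45459780-45459806 (minus strand) and chr1:45925466-45925492 (minus strand).
Fth1: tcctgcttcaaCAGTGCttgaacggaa
Ftl1: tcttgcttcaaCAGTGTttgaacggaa
Slc40a1: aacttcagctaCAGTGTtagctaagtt
The elements of both ferritin genes were identical at 25 of 27 bases, although the genes lie on different chromosomes. Tfrc held 5 elements, all in its 3′ UTR on the plus strand of chromosome 16, at chr16:32631161-32631187, chr16:32631220-32631246, chr16:32631599-32631625, chr16:32631664-32631690 and chr16:32631711-32631737.
Tfrc element 1: tttatcagtgaCAGAGTtcactataaa
Tfrc element 2: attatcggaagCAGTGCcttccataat
Tfrc element 3: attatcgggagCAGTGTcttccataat
Tfrc element 4: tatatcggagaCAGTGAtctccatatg
Tfrc element 5: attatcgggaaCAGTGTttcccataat
One form of Slc11a2 held an element with 4 of 5 pairs in its 3′ UTR, at chr15:100395154-100395180 (minus strand); counts per gene merge this form with the forms that lack it.
Slc11a2 (transcript 205): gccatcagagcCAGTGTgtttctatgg
No UTR of Slc11a1, Ireb2 or Ncoa4 held the pattern with 4 or 5 pairs, which says only that these letters are not in those windows. A match is a description of the sequence; binding by a regulatory protein was not measured.

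**Figure D1:**
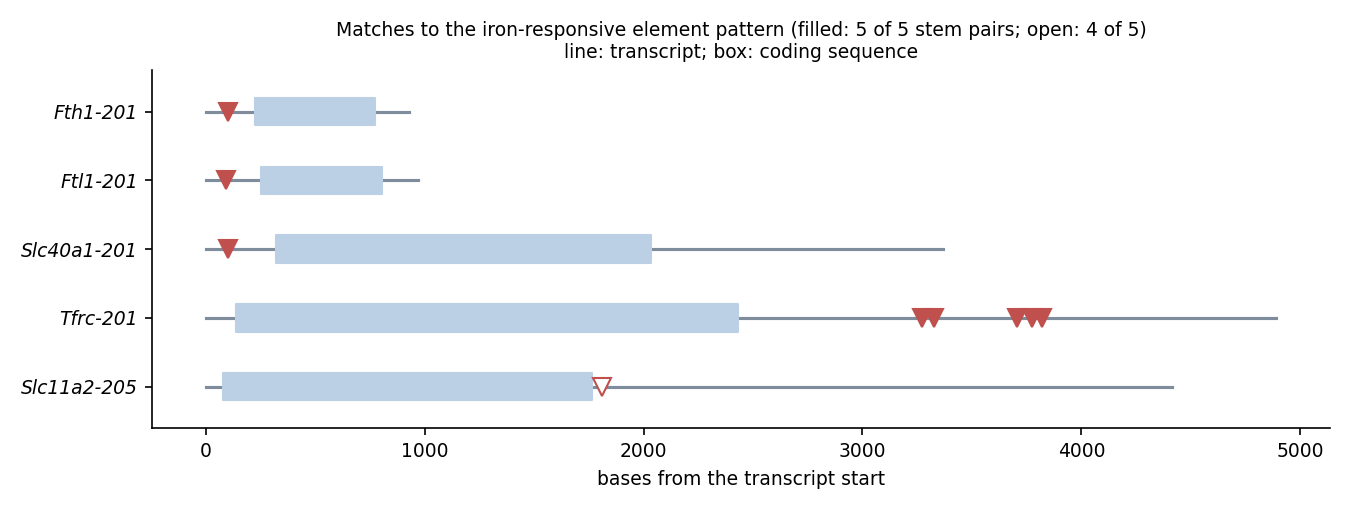
Position of each match to the iron-responsive element pattern along 1 transcript of each gene, in bases from the transcript start (line, transcript; box, coding sequence; filled triangles, 5 of 5 stem pairs; open triangle, 4 of 5). The matches of Fth1, Ftl1 and Slc40a1 lie before the coding sequence and the 5 of Tfrc after it.

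The libraries held 5567481 to 8100538 counts, and their correlation within a group (log2 scale, across genes) was 0.987 to 0.992. Values below are CPM, each count scaled to a common library size with the library factors of edgeR. Fold changes are log2 values with their standard error (SE) from edgeR's quasi-likelihood test over all 13 libraries, and a gene was called at an adjusted p (Benjamini-Hochberg over 11906 genes) under 0.05. The labels name no batch.

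Ferritin dominated the circuit at the level of RNA. Per kilobase of exon, over all 13 libraries, Fth1 averaged 3986 CPM and Ftl1 3910, ranked 6 and 13 of the tested genes by mean CPM. Their order depends on the gene length: the Fth1 exons used span 1558 bases because of a longer form, and transcript Fth1-201 has 929. Ncoa4 followed at 59.8 CPM per kilobase and Ireb2 at 12.5. The transporters were low, with Tfrc at 4.30, Slc11a1 at 4.12, Slc11a2 at 3.56 and Slc40a1 at 2.28 CPM per kilobase; the libraries of these 4 overlapped in range (Slc11a1 alone ran from 0.818 to 8.23). Fth1 and Ftl1 together took 0.853% to 1.24% of all counts of a library. Reads on listed ferritin pseudogenes, which can share reads with the parent genes, came to 4 to 18 per library, or 0.0065% to 0.0303% of the ferritin counts.

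With vehicle, PM raised 4 of the 8 genes and lowered none, against 2.6% of all tested genes called higher and 2.26% called lower; the 4 were Slc11a1, Tfrc, Slc11a2 and Fth1. With metformin, PM raised Slc11a1 and Fth1 and lowered Ncoa4, 2 and 1 of 8 against 7.18% of all genes higher and 5.6% lower. Metformin by itself, in PBS mice, raised Slc11a1 and Tfrc and lowered Ncoa4, 2 and 1 of 8 against 1.13% higher and 1.93% lower. In PM mice, metformin lowered Tfrc and Ncoa4 and raised none, against 2.81% of all genes lower and 4.08% higher. The difference of the PM effects between metformin and vehicle, tested as an interaction, was called for Tfrc alone, as lower, against 0.546% of all genes lower and 0.89% higher. The median log2 change of the 8 genes was 0.36, 0.11, 0.01, −0.16 and −0.16 in these comparisons, in the order given, and that of all tested genes was within 0.01 of 0 in each. The 8 genes were chosen with earlier results of these data known, so these shares are a description and not a test of the list. In each called contrast of 2 groups the libraries of those groups did not overlap, which was also so for 7.33% of all genes higher with PM on vehicle, 16.1% higher and 13.9% lower with PM on metformin, 6.2% higher and 7.54% lower with metformin in PBS mice, and 13.1% lower with metformin in PM mice. The comparisons share groups (vehicle PBS is the reference both for PM and for metformin), so their values for a gene are not independent. The genes share libraries as well. Of the 3 vehicle PM libraries, vehicle PM 2 was the highest for Tfrc, Slc11a1, Slc11a2, Fth1, Ftl1 and Slc40a1. Because sorted cells were measured in bulk, a change in the cells sorted and a change of RNA per cell cannot be told apart.

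**Figure D2:**
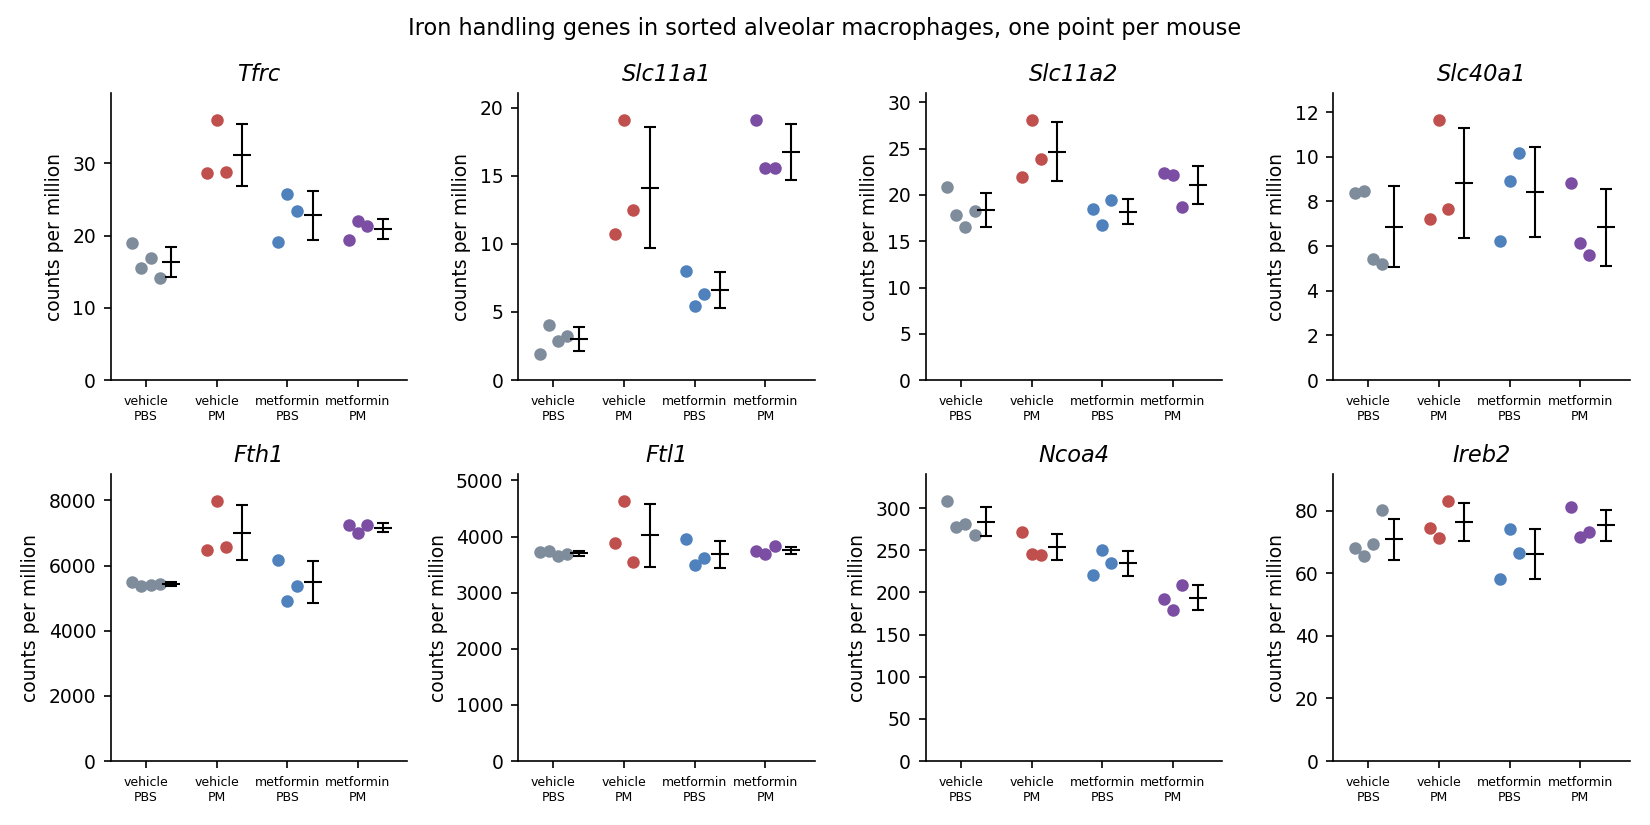
CPM of the 8 genes in each library (points, 1 per mouse; bars, group mean ± SD; linear axes from 0), by group. Tfrc is highest in vehicle PM (28.7 to 36.1), Slc11a1 lowest in vehicle PBS (1.90 to 4.07), and Ncoa4 lowest in metformin PM (180 to 209).

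Tfrc (ENSMUSG00000022797; mm10 chromosome 16, 32608920 to 32632794) encodes the receptor that takes up transferrin-bound iron. Its level was 19.0, 15.5, 16.9 and 14.1 CPM in vehicle PBS mice and 28.7, 36.1 and 28.8 in vehicle PM mice. It was 19.2, 25.8 and 23.4 CPM in metformin PBS mice and 19.4, 22.04 and 21.3 in metformin PM mice. Every vehicle PM library thus lay above every other library, and the metformin groups overlapped each other. PM raised Tfrc by 0.92 ± 0.12 (1.90-fold; edgeR adjusted p = 7.24e-05, n = 3 against 4) with vehicle. With metformin the PM change was −0.13 ± 0.13 (95% interval −0.40 to 0.14; edgeR adjusted p = 0.589, n = 3 against 3) and was not called. The test of the difference itself gave −1.05 ± 0.18 (95% interval −1.42 to −0.68; edgeR adjusted p = 0.00458), the 59th lowest value of 11906 genes. In PM mice, Tfrc was 1.49-fold lower with metformin (−0.58 ± 0.12; edgeR adjusted p = 0.00649), a call that ended without vehicle PM 2 (−0.46; edgeR adjusted p = 0.0546). In PBS mice Tfrc was higher with metformin by 0.47 ± 0.13 (edgeR adjusted p = 0.0493); that call lay at the threshold and was lost in 15 of 22 alternatives, with the value between 0.38 and 0.59. The loss came, among others, without any 1 of vehicle PBS 2, 3 and 4 and metformin PBS 3 and 4 (edgeR adjusted p of 0.0604 to 0.184). The PBS levels enter the Tfrc difference as the PM levels do.

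Slc11a1 (ENSMUSG00000026177; chromosome 1, 74375195 to 74386062), the phagosomal metal transporter gene, showed the widest range of the 8 genes. Its level was 1.90, 4.07, 2.87 and 3.22 CPM in vehicle PBS mice, from counts of 12 to 26, and 10.7, 19.1 and 12.5 in vehicle PM mice. It was 8.02, 5.42 and 6.31 CPM in metformin PBS mice and 19.1, 15.5 and 15.6 in metformin PM mice. All PM libraries lay above all PBS libraries, and among PBS mice those on metformin lay above those on vehicle. PM raised Slc11a1 by 2.22 ± 0.24 with vehicle (4.65-fold; edgeR adjusted p = 6.72e-06), the 25th largest rise of all tested genes. With metformin it raised it by 1.35 ± 0.21 (2.55-fold; edgeR adjusted p = 0.000266). The difference of those changes, −0.87 ± 0.33 (95% interval −1.56 to −0.17; edgeR adjusted p = 0.279, unadjusted p = 0.0177), was not called. It was called with no filter on low counts (−0.88; edgeR adjusted p = 0.0433). In PBS mice metformin raised Slc11a1 by 1.12 ± 0.28 (2.17-fold; edgeR adjusted p = 0.031), the 23rd largest rise of that comparison. It fell short on leaving out vehicle PBS 1 or 3 or metformin PBS 1 or 4 (0.95 to 1.15; edgeR adjusted p of 0.0528 to 0.122) and by limma-voom (adjusted p = 0.0524). In PM mice metformin and vehicle overlapped (0.25 ± 0.18, edgeR adjusted p = 0.479). The higher PBS level with metformin enters the Slc11a1 difference.

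Slc11a2 (ENSMUSG00000023030; chromosome 15, 100387898 to 100425072), the endosomal iron transporter gene, moved less. Its level was 20.9, 17.9, 16.6 and 18.2 CPM in vehicle PBS mice and 21.9, 28.1 and 23.9 in vehicle PM mice. It was 18.5, 16.7 and 19.4 CPM in metformin PBS mice and 22.3, 22.2 and 18.7 in metformin PM mice. The vehicle groups did not overlap and the metformin groups did. PM raised Slc11a2 by 0.42 ± 0.11 with vehicle (edgeR adjusted p = 0.0326); with metformin the change was 0.22 ± 0.12 (edgeR adjusted p = 0.277). The difference between those changes was −0.20 ± 0.16 (95% interval −0.55 to 0.14; edgeR adjusted p = 0.698). The call with vehicle was lost in 8 of 22 alternatives: by DESeq2 (adjusted p = 0.0535), with the replicate number as a block (edgeR adjusted p = 0.0793), with the 2 groups alone (0.0568), and on leaving out vehicle PBS 2, 3 or 4, or vehicle PM 2 or 3, lowest without vehicle PM 2 (0.31; edgeR adjusted p = 0.229). The gene overlaps Gm5475 on the opposite strand, which had at most 13 counts in a library.

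Fth1 (ENSMUSG00000024661; chromosome 19, 9982703 to 9985092) encodes the ferritin chain that oxidises iron for storage. Its level was 5495, 5371, 5419 and 5438 CPM in vehicle PBS mice and 6471, 7996 and 6567 in vehicle PM mice. It was 6178, 4918 and 5387 CPM in metformin PBS mice and 7238, 6997 and 7252 in metformin PM mice. Every PM library exceeded every PBS library, whatever the drinking water held. The PM changes were 0.37 ± 0.07 with vehicle (edgeR adjusted p = 0.00221) and 0.38 ± 0.07 with metformin (edgeR adjusted p = 0.00171), both about 1.3-fold. Over 22 alternatives the change ran from 0.26 to 0.42 with vehicle and from 0.30 to 0.46 with metformin, called in all 22 for each. The difference of the 2 changes was 0.01 ± 0.10 (95% interval −0.20 to 0.22, edgeR adjusted p = 0.981). It ran from −0.07 to 0.11 over 21 alternatives, changed sign in 6 of them and was called in 0. Metformin changed Fth1 by 0.02 ± 0.07 in PBS mice and 0.03 ± 0.07 in PM mice, and neither was called (edgeR adjusted p = 0.934 and 0.871).

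Ftl1 (ENSMUSG00000050708; chromosome 7, 45457944 to 45459884), the light chain gene with the nearly identical hairpin, was called in none of the 5 comparisons. Its level was 3731, 3736, 3648 and 3686 CPM in vehicle PBS mice and 3880, 4641 and 3552 in vehicle PM mice. It was 3955, 3491 and 3616 CPM in metformin PBS mice and 3743, 3696 and 3824 in metformin PM mice. The groups overlapped in each contrast, and the PM changes were 0.12 ± 0.06 with vehicle (edgeR adjusted p = 0.376) and 0.03 ± 0.07 with metformin (edgeR adjusted p = 0.863). The ratio of Fth1 to Ftl1 counts within a library, which needs no scaling between libraries, was 1.47 ± 0.021 (SD, n = 4) in vehicle PBS and 1.75 ± 0.093 (SD, n = 3) in vehicle PM mice. It was 1.49 ± 0.077 (SD, n = 3) in metformin PBS and 1.91 ± 0.023 (SD, n = 3) in metformin PM mice, so that each PM library had a higher heavy to light chain ratio than each PBS library.

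**Figure D3:**
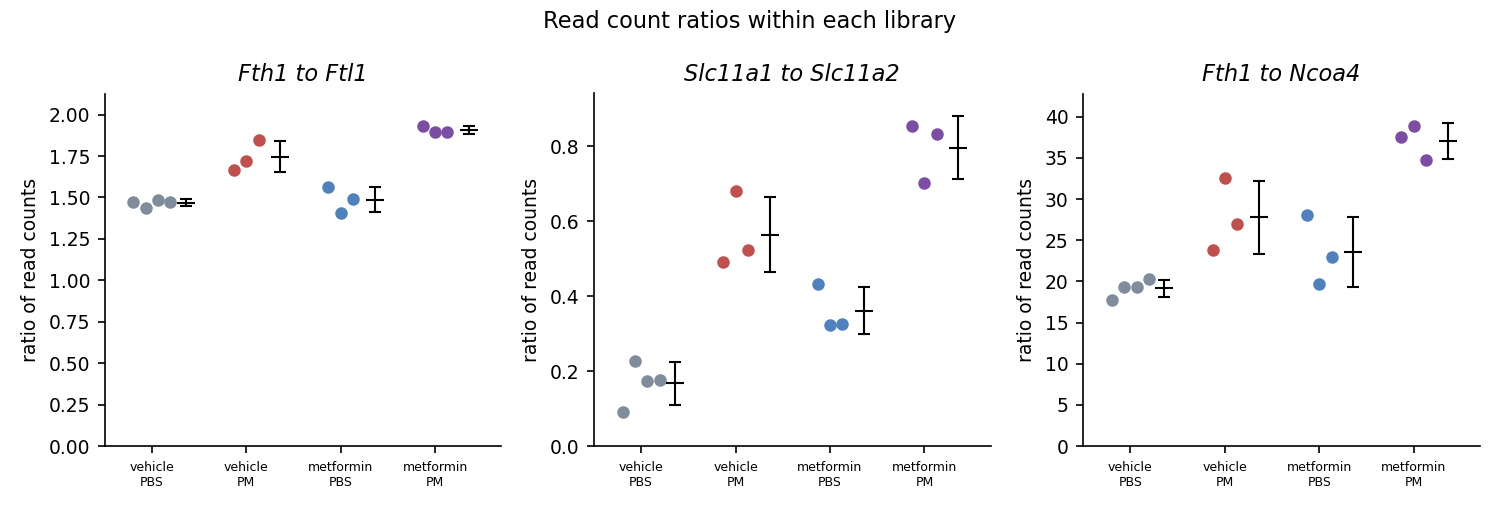
Ratios of read counts within each library (points, 1 per mouse; bars, group mean ± SD; linear axes from 0) for Fth1 to Ftl1, Slc11a1 to Slc11a2 and Fth1 to Ncoa4. Fth1 to Ftl1 is about 1.47 in vehicle PBS and 1.91 in metformin PM mice, and all 3 ratios are highest in the metformin PM group.

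Ncoa4 (ENSMUSG00000056234; chromosome 14, 32159865 to 32179855) encodes the receptor that delivers ferritin to the lysosome. Its level was 309, 278, 281 and 268 CPM in vehicle PBS mice and 272, 245 and 244 in vehicle PM mice. It was 220.2, 249.8 and 235 CPM in metformin PBS mice and 193, 180 and 209 in metformin PM mice. Libraries of mice on metformin lay below those on vehicle within PBS and within PM. Metformin lowered Ncoa4 by 0.39 ± 0.07 on the log2 scale in PM mice (1.31-fold lower; edgeR adjusted p = 0.00152) and by 0.27 ± 0.07 in PBS mice (1.21-fold lower; edgeR adjusted p = 0.0239). PM lowered it by 0.28 ± 0.07 with metformin (edgeR adjusted p = 0.0115); with vehicle the change was −0.16 ± 0.06 and was not called (edgeR adjusted p = 0.191, unadjusted p = 0.0215). The difference of the PM effects was −0.12 ± 0.10 (95% interval −0.32 to 0.08; edgeR adjusted p = 0.702). The call in PBS mice was lost without vehicle PBS 1 or 2 or metformin PBS 1 or 4 (−0.28 to −0.23; edgeR adjusted p of 0.0502 to 0.104), and that of PM with metformin without metformin PBS 3 or metformin PM 3 (−0.24 in each; edgeR adjusted p = 0.065 and 0.0687). With Fth1 higher and Ncoa4 lower, the ratio of Fth1 to Ncoa4 counts ran from 19.2 ± 1.04 (SD, n = 4) in vehicle PBS mice to 37.1 ± 2.14 (SD, n = 3) in metformin PM mice, with 27.8 ± 4.47 in vehicle PM and 23.6 ± 4.22 in metformin PBS mice (SD, n = 3 each).

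Slc40a1 (ENSMUSG00000025993; chromosome 1, 45908068 to 45926523), the gene of the iron exporter ferroportin, had the lowest mean of the 8 per kilobase over all 13 libraries. Its level was 8.39, 8.46, 5.42 and 5.18 CPM in vehicle PBS mice and 7.20, 11.7 and 7.64 in vehicle PM mice. It was 6.22, 8.92 and 10.2 CPM in metformin PBS mice and 8.81, 6.11 and 5.602 in metformin PM mice. All 4 groups overlapped. The PM changes were 0.35 ± 0.23 with vehicle and −0.29 ± 0.24 with metformin, neither of them called (edgeR adjusted p = 0.502 and 0.499). Their difference was −0.64 ± 0.34, with a 95% interval from −1.35 to 0.06 (edgeR adjusted p = 0.482). That interval lay mostly below 0 but included it, so a lower PM change with metformin and no difference could not be told apart.

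Ireb2 (ENSMUSG00000032293; chromosome 9, 54863755 to 54912534), which encodes iron regulatory protein 2, ranged from 58.1 to 83.2 CPM over the 13 libraries. It was 68.2, 65.5, 69.5 and 80.2 CPM in vehicle PBS mice and 74.4, 71.4 and 83.2 in vehicle PM mice. It was 58.1, 74.1 and 66.4 CPM in metformin PBS mice and 81.1, 71.5 and 73.3 in metformin PM mice. The groups overlapped, and none of the 5 comparisons called it, with changes between −0.10 and 0.19 (lowest edgeR adjusted p = 0.201). Iron regulatory protein 2 is controlled mainly by its breakdown, so its RNA does not give its activity.

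**Figure D4:**
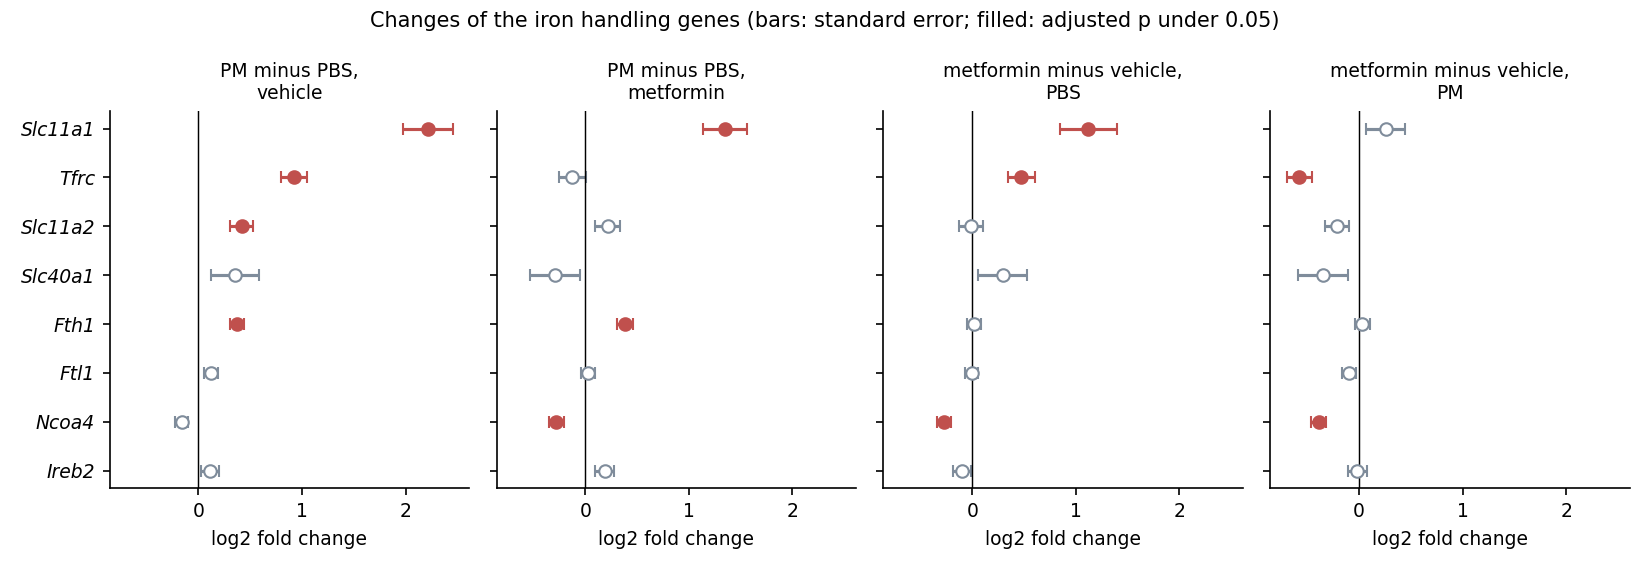
Log2 fold change of each gene (points) with its standard error (bars) in the 4 contrasts of 2 groups; filled points have an adjusted p under 0.05. Tfrc stands at 0.92 with PM on vehicle and −0.13 with PM on metformin, while Fth1 stands at 0.37 and 0.38.

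Other genes of iron metabolism were listed by role, 52 in all, of which 37 could be tested. This list too was chosen with earlier results of these data known. With PM on vehicle 5 of the 37 rose and none fell, against 2.6% of all genes higher and 2.26% lower (median 0.04, against 0.00 for all genes). Hmox1, the haem oxygenase gene that frees iron from haem, ran from 138 to 171 CPM in vehicle PBS mice and was 208 to 591 in vehicle PM mice (1.27 ± 0.22; edgeR adjusted p = 0.0012), or 0.74 without vehicle PM 2 (edgeR adjusted p = 0.00378). Hp, encoding haptoglobin, which binds free haemoglobin, rose from 1.51 ± 0.409 CPM (SD, n = 4) to 6.76 ± 1.12 (SD, n = 3), a change of 2.16 ± 0.25 (edgeR adjusted p = 1.66e-05). Blvrb, encoding a biliverdin reductase, rose by 0.34 ± 0.09 (edgeR adjusted p = 0.0245), a call lost when vehicle PBS 3 or 4, or else vehicle PM 1 or 2, was left out (lowest value 0.28). Among 7 regulators, Zfp36 and Zc3h12a rose; they encode tristetraprolin and Regnase-1, proteins that destabilise mRNAs, Tfrc mRNA among those described. Zfp36 rose by 0.76 ± 0.12 (edgeR adjusted p = 0.00038). Zc3h12a rose by 0.37 ± 0.10 (edgeR adjusted p = 0.0382), lost in 7 of 13 leave-one-out fits: without vehicle PBS 1, 2 or 4, vehicle PM 1 or 3, or metformin PM 3 or 4 (lowest value 0.31).

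With PM on metformin 4 of the 37 (10.8%) rose and none fell, a share near that of all genes, of which 7.18% were higher and 5.6% lower (median 0.02). Hp rose by 2.55 ± 0.29 (edgeR adjusted p = 6.54e-06) and Zc3h12a by 0.51 ± 0.11 (edgeR adjusted p = 0.00346). Fbxl5, whose product marks iron regulatory proteins for breakdown when iron is plentiful, rose from 194 ± 19.5 CPM to 258 ± 15.9 (SD, n = 3 each), by 0.41 ± 0.08 (edgeR adjusted p = 0.00245); it overlaps the more strongly read Bst1 on the opposite strand, and its counts are uncertain for that reason. Epas1, encoding hypoxia-inducible factor 2α, rose by 0.59 ± 0.18 (edgeR adjusted p = 0.0323), but its groups overlapped and the call was lost by DESeq2, by limma-voom and without metformin PBS 1 or 3 or metformin PM 3 or 4 (lowest value 0.47). Hmox1 was not called there (0.19 ± 0.23; edgeR adjusted p = 0.671), and its difference from the change on vehicle, −1.08 ± 0.32, missed the threshold (edgeR adjusted p = 0.119), as did that of Zfp36, −0.54 ± 0.17 (edgeR adjusted p = 0.149). Within PBS mice Hmox1 averaged 237 CPM with metformin and 152 with vehicle. That change, 0.64 ± 0.22, was not called (edgeR adjusted p = 0.132), but the PBS levels enter the Hmox1 difference.

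With metformin the calls in the wider list were near the share of all genes. In PBS mice, where 1.13% of all genes were higher and 1.93% lower, edgeR called 0 of the 37, as did DESeq2 and limma-voom, with 6 at an unadjusted p under 0.05, and in PM mice it called 1, against 4.08% of all genes higher and 2.81% lower. That gene was Trf, encoding transferrin itself, which went from 229 ± 7.62 CPM to 262 ± 8.30 (SD, n = 3 each; 0.20 ± 0.06, edgeR adjusted p = 0.0383) and lost its call in 9 of 22 alternatives, among them without any 1 library of either PM group or without metformin PBS 4 (0.16 to 0.21). The interaction test, which called 0.89% of all genes higher and 0.546% lower, called 0 of the 37 by each of edgeR, DESeq2 and limma-voom, with 4 at an unadjusted p under 0.05. None of the 11 genes of mitochondrial iron use was called in any of the 5 comparisons by edgeR, DESeq2 or limma-voom, with 0 to 3 of them at an unadjusted p under 0.05 in each; with so few genes, 0 is near the shares of all genes called. The 15 genes too low to test included Hamp, the gene of the hormone hepcidin, and Lcn2, Ltf, Cd163 and Tfr2.

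By the root mean square difference of centred log2 CPM over the 13 libraries, the genes whose pattern was most like that of Tfrc included Sc5d (0.21), which encodes an enzyme of cholesterol synthesis, and Gm15200 (0.22). Those most like Slc11a1 were Slc7a11 (0.36), Aoah (0.41) and Sema4d (0.41), of which Slc7a11 encodes a cystine transporter. Those most like Fth1 were P2rx4, Ctsz and Rps24 (all 0.08), and those most like Slc11a2 were Vwf (0.09), Pgam1 (0.10) and Ctsz (0.11). Ncoa4 was most like Srebf1 (0.07), the gene of a lipid synthesis regulator, Med22 and Acsl1 (both 0.08). These are ranks of likeness among the same 13 libraries, with no test. The members' own spread on the same scale was 0.37 for Tfrc, 1.02 for Slc11a1, 0.21 for Fth1, 0.21 for Slc11a2 and 0.22 for Ncoa4. The differences are therefore not comparable from member to member.

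The labelled cell type had its markers: all 16 alveolar macrophage markers were expressed, with summed levels of 32845 to 36838 CPM in vehicle PBS, 31720 to 34252 in vehicle PM, 30744 to 33114 in metformin PBS and 33433 to 35987 in metformin PM mice. Chil3 made up much of that sum (group means of 14677 to 17324 CPM), and single markers moved both ways with PM. On vehicle 4 rose and 3 fell (against 2.6% and 2.26% of all genes), and on metformin 7 rose and 4 fell (against 7.18% and 5.6%). With metformin in PBS mice 0 of the 16 rose and 2 fell (against 1.13% and 1.93% of all genes). In PM mice 1 rose and 2 fell with metformin (against 4.08% and 2.81%). The mean of Marco was 372 CPM in vehicle PBS and 172 in metformin PBS mice. Car4, for example, had a mean of 433 CPM in vehicle PBS and 936 in vehicle PM mice, and Ear1 of 458 and 310.4 CPM. Of 14 monocyte and monocyte-derived macrophage markers 8 were tested, and 5 rose with PM on vehicle (against 2.6% of all genes) and 4 with PM on metformin (against 7.18%), such as Mmp14 and Itgam. Their summed level was 1937 to 2339 CPM in vehicle PBS, 2755 to 3738 in vehicle PM, 2354 to 2915 in metformin PBS and 2814 to 3234 in metformin PM mice, carried mostly by Fn1 and Cd14. The defining monocyte gene Ly6c2 was at or below 0.255 CPM in every library. Ccr2, another monocyte marker, was present in every library and not called, with means of 8.26 CPM in vehicle PBS and 7.22 in vehicle PM mice, and of 7.36 in metformin PBS and 4.39 in metformin PM mice. The called monocyte markers, Slc11a1 and Fth1 were each higher with PM, and the mean of Ccr2, which was not called, was lower. With metformin in PBS mice 0 of the 8 tested monocyte markers were called. That is near the shares of all genes there (1.13% higher and 1.93% lower). The part of the monocyte markers in the results for Slc11a1 and Fth1 was not tested. Of 10 neutrophil markers, Ly6g, Retnlg and Camp had no count in any library, and S100a9 was at or below 0.159 CPM. Others were present in every library: Csf3r at 19.3 to 36.1 CPM, Cxcr2 at 3.90 to 10.6 and S100a8 at 2.32 to 5.48. The neutrophil sum was 26.3 to 46.2 CPM, carried mostly by Csf3r. Haemoglobin genes, which would mark red cell precursors rich in Tfrc, were each at or below 0.248 CPM, and of 8 erythroid markers 1 (Epor) could be tested and was not called. Of 5 epithelial markers 3 rose and 1 fell with PM on metformin (against 7.18% and 5.6% of all genes), with sums of 129 to 212 CPM. Epcam carried most of that sum, with means of 140 CPM in metformin PBS and 104 in metformin PM mice. Between the same groups the means of Sftpc went from 19.6 to 46.6 CPM, Sftpb from 4.62 to 11.3 and Sftpa1 from 4.31 to 12.5. The 2 lymphocyte markers tested rose with PM on vehicle and on metformin (against 2.6% and 7.18% of all genes), with sums of 0.616 to 8.44 CPM.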

How the data were processed

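The deposited table holds raw read counts per gene for 13 libraries, per the file headers; the unit "other" (deposited Start, End and Length) was used for positions only. Per the submitters' processing notes, bcl2fastq (2.19), TopHat2, HTSeq, edgeR and mm10 were used; annotation release and strand setting are not given in the sources used here. Groups and replicate numbers came from the labels. Of 43430 genes 42462 matched a symbol. In R 4.3.3, edgeR 4.0.16 (filterByExpr, TMM, quasi-likelihood test, 1 model of 4 groups, 9 residual degrees of freedom) tested 11906 genes; limma 3.58.1 and DESeq2 1.42.0 were alternatives. SE is the log2 change over the root of F. The script was tested on simulated counts of the 11906 genes, recovering 57 of 67 genes changed 2-fold with PM on vehicle and 47 of 67 in the interaction. Of genes changed 1.5-fold it recovered 49 of 67 with PM on vehicle and 27 of 67 in the interaction. Lengths are exon unions of GENCODE M21 coding transcripts. Named were the 8 members, listed iron genes called in a comparison (up to 8 by adjusted p) and the 3 genes most like each called member. Some genes that this rule or the lists name are not reported here. Members and lists were chosen with earlier results of these data known. No replicate pair agreed within sampling noise (chi-square per gene 2.11 to 6.51 over 15 pairs). The design gives 3 to 4 biological replicates per group, and each is treated as 1 mouse.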

Additional observations from a re-analysis of the deposited data

Results flagged for a closer look

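The change of Tfrc with PM differed between drinking water with metformin and with vehicle: the interaction was −1.05 ± 0.18 (edgeR adjusted p = 0.00458), with all 3 vehicle PM libraries above the 4 vehicle PBS libraries and overlapping libraries with metformin. It passed the threshold in all 21 alternatives (−1.17 to −0.94; adjusted p up to 0.0167). The PBS levels enter the interaction: metformin changed Tfrc by 0.47 ± 0.13 in PBS mice and by −0.58 ± 0.12 in PM mice. The call in PBS mice was lost in 15 of 22 alternatives. The cause of the interaction was not tested.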

How the results depend on the processing

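Members called with PM on vehicle (4) or on metformin (3) stayed within 1.5 times under all 22 alternatives each (3 to 4 and 2 to 3). With metformin in PBS mice the 3 members fell to 1 by limma-voom and ranged from 0 to 3 on leaving out 1 library, with 0 without metformin PBS 4 and 1 without vehicle PBS 1, 2 or 3 or metformin PBS 1. In PM mice the 2 members ranged from 1 to 2, with 1 without vehicle PM 2. The interaction count of 1 became 2 with no filter on low counts. Leaving out 1 library gave 3 to 5 other iron genes for PM on vehicle (5; 3 without vehicle PBS 4 or vehicle PM 1), 0 to 3 for metformin in PBS mice (0), 0 to 4 for metformin in PM mice (1) and 0 to 1 for the interaction (0). With no filter these counts were 7 for PM on metformin (4), 3 for metformin in PBS mice, 3 in PM mice and 3 for the interaction. With the 2 groups alone they were 1 in PBS and 4 in PM mice, and at least 5 CPM in 3 libraries gave 2 in PM mice. No called value changed sign. The causes were not tested. With the replicate number as a block the other iron genes called were 1 for metformin in PBS mice and 0 in PM mice, and over all genes 472, 1401, 245, 535 and 194 were called in the 5 comparisons, against 578, 1522, 365, 820 and 171. Same-numbered samples did not deviate together over all tested genes (16 pairs, correlation −0.10 to 0.12, 1 over 0.1). A correlation over all genes cannot exclude a shared effect on some of them. With no filter 849, 1786, 813, 1174 and 507 genes were called. Counts were low for Slc40a1 and Slc11a1, which limits their precision.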
